A study of Homo sapiens with 16 samples.

Results

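The transcripts of 10 genes of the ATF4 stress response fell, dipped or held their level after the HER2 kinase was inhibited in MCF10HER2 cells. The genes were chosen by symbol: the stress factors ATF4, ATF5, ATF3 and DDIT3, and the targets ASNS, CHAC1, CTH, SESN2, STC2 and TRIB3. They are 10 of the 18190 symbols on the array and were read by 12 of its 20589 probes. MCF10HER2 cells derive from MCF10A, a nontransformed line of human breast epithelium, and stably over express HER2, a receptor tyrosine kinase whose gene is ERBB2. All cultures grew without insulin in a defined serum-free medium with EGF. The cultures received 1 µM of the HER2 kinase inhibitor CP724,714 and RNA was taken from parallel cultures every 3 h from 0 to 45 h. The 0 h culture was the only untreated one, so there were 1 untreated and 15 treated arrays, with no replicate at any hour. Fresh medium was given together with the inhibitor, and without a later untreated culture the effects of the inhibitor, the fresh medium and time in culture cannot be told apart.

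ATF4 is a basic leucine zipper transcription factor at the center of the integrated stress response. When cells lack amino acids, carry unfolded protein in the endoplasmic reticulum (ER) or meet other stresses, kinases phosphorylate the translation factor eIF2 alpha, which slows most protein synthesis but favors translation of the ATF4 mRNA through its upstream reading frames. ATF4 protein then acts with partners of the C/EBP and ATF families on C/EBP-ATF response elements in genes for amino acid synthesis and uptake, tRNA charging, redox defense and cell death. Because ATF4 and ATF5 are controlled largely at translation, their mRNA and their protein need not move together, and protein was not measured here.

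The letters of such an element occurred near the starts of 3 of the genes, and these promoters are shown because response elements are where ATF4 is known to act. The core of the element, TGATGNAA, was searched on both strands of 18 start site windows (250 bases before to 50 after a start) of the 10 genes, taken from RefSeq on GRCh38.p14. It occurred in 3 of the 18 windows, 1 each for ASNS, ATF3 and CHAC1, and in 3.62% of all 35116 windows of this length. The 250 bases before the start follow 5′ to 3′ on the strand of the gene, with the match in capitals, for ASNS at chr7:97872409-97872658 (minus strand), ATF3 at chr1:212565157-212565406 (plus strand) and CHAC1 at chr15:40953221-40953470 (plus strand).
ASNS: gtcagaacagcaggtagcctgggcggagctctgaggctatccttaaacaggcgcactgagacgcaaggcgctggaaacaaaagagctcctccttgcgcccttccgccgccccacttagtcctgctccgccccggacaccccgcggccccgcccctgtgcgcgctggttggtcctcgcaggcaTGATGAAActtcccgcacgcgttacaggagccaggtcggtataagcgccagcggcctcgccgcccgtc
ATF3: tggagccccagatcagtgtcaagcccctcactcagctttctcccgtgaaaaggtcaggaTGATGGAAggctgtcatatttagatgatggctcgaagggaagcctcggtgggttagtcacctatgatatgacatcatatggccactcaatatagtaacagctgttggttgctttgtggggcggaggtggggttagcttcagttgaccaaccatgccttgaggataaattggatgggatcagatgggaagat
CHAC1: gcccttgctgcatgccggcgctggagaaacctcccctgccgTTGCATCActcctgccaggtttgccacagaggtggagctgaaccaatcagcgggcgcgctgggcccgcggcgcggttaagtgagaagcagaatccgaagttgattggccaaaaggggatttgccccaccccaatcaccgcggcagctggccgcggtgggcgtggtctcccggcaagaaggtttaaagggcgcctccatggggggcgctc
The match began 68 bases before the start of ASNS, 191 before that of ATF3 and 209 before that of CHAC1, where it lay on the opposite strand and so reads as its reverse complement. The cAMP response element TGACGTCA and the ER stress element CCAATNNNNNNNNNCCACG were in none of the 18 windows, against 1.85% and 0.0769% of all windows. A match is a description of letters and not of binding, and its absence from a window says nothing about the rest of a gene.

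Values are log2 signals after background correction and quantile normalization, and a probe was called detected where its deposited detection p was under 0.05. Between 10363 and 11436 probes were detected per array. Array background was 147.9 to 163.3 intensity units at 0 to 21 h and 179.2 to 190.4 at 24 to 45 h, so the arrays formed 2 sets along time, and intensities were lowest at 9 and 18 h. Of 10 breast epithelial markers on the array, 8 were detected on 3 or more arrays, with KRT14 detected on 1 and ITGA6 on 0. Of 12 markers of other cell types, ACTA2, CD68 and PECAM1 were detected on 16 arrays, PTPRC on 7 and the others on at most 2. The ERBB2 probes were detected on 7 and on 1 of the 16 arrays, so they give no check of the introduced HER2. In these bulk cultures, fewer cells making a transcript and less of it per cell cannot be told apart.

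The genes differed in level and in how well they were detected. ATF4, ATF5, ASNS, DDIT3, STC2 and TRIB3 were detected on 16 arrays, CTH on 13 and SESN2 on 8. CHAC1 was detected on the 0 h array alone, and a second CTH probe was detected on none. The brighter ATF3 probe carried detection p-values between 0.161 and 0.485 while its intensity lay above the detection threshold of every array (3120 against 200 units at 0 h), and its p-values were off the steps that most probes follow. The dimmer ATF3 probe stayed near background, between 5.37 and 6.14. ATF3 and CHAC1 were therefore not among the 8 genes tested, and their fits come from the alternative without a detection filter.

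**Figure D1:**
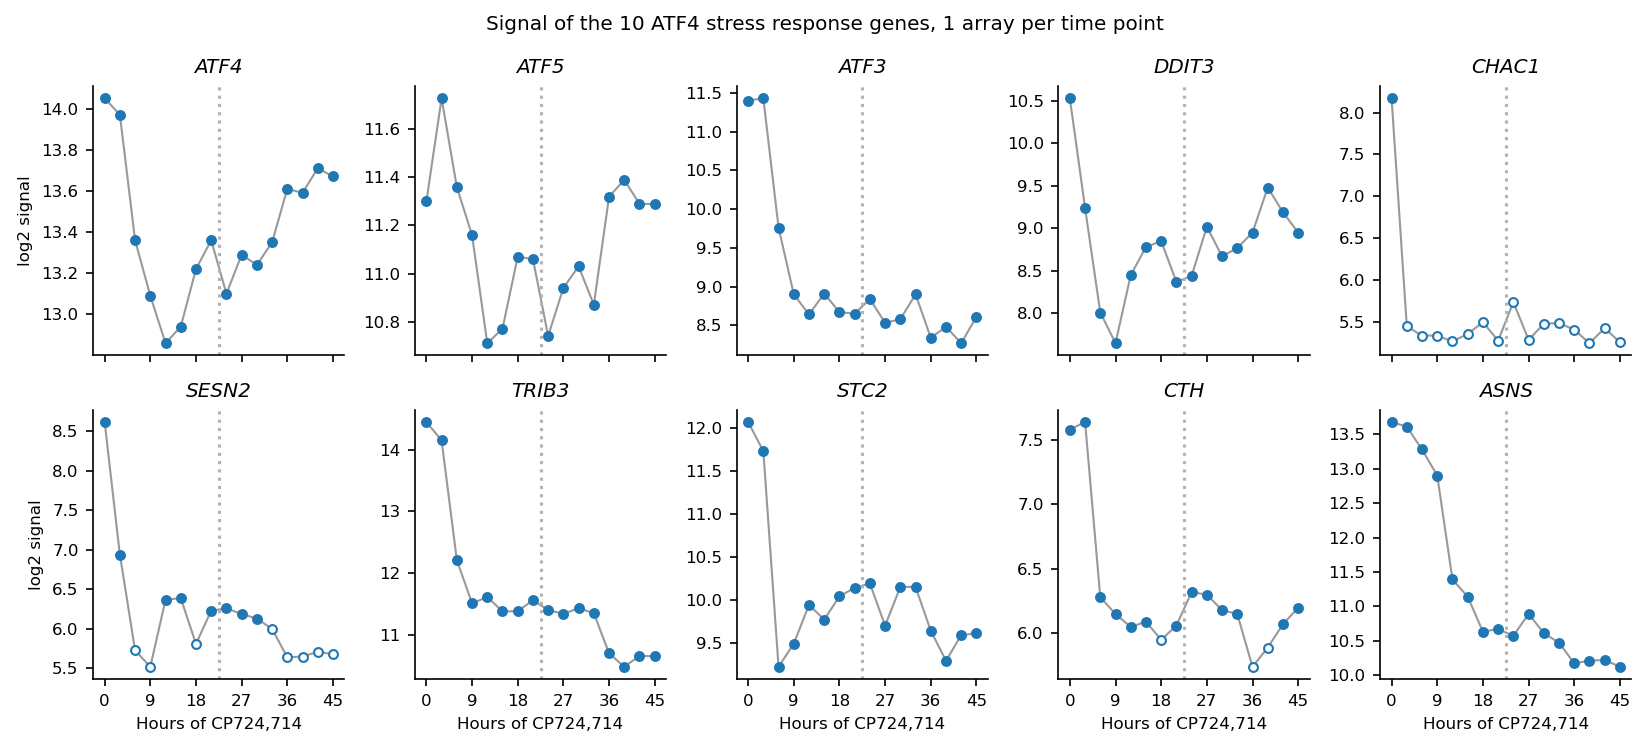
Log2 signal of each of the 10 genes (y axis, own scale per gene) against hours of inhibitor (x axis), 1 point per array. Filled points lie at or above the array's detection threshold intensity, open points below it, and the dotted line separates the 2 sets of arrays by background. ASNS stepped down last, at 12 h, and ATF4 and DDIT3 turned upward after their lowest arrays at 12 h and 9 h.

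All 8 tested genes depended on time in a limma spline fit with 4 degrees of freedom, where 42.2% of the 12321 tested probes did. Adjusted p ran from 2.46e-07 for ASNS and TRIB3 to 0.0333 for ATF5. Without the 0 h array 5 of the 8 were called, with an adjusted p of 0.156 for DDIT3, 0.13 for SESN2 and 0.0866 for STC2. ATF5 lost its call without the 3, 15, 24, 27, 39 or 42 h array, and DDIT3 also without the 3 h or the 9 h array. P-values here measure the scatter of single arrays about a curve in time.

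Among the factor transcripts, the highest and lowest arrays lay 2.28-fold apart for ATF4, 2.03-fold for ATF5, 7.37-fold for DDIT3 and 8.95-fold for ATF3. The ATF4 signal was 14.05, 13.97, 13.36 and 13.09 at 0, 3, 6 and 9 h, and 12.86, 12.94, 13.22 and 13.36 at 12, 15, 18 and 21 h. It was 13.10, 13.29, 13.24 and 13.35 from 24 to 33 h and 13.61, 13.59, 13.71 and 13.67 from 36 to 45 h. ATF4 thus dipped 2.28-fold to its lowest array at 12 h and came back in part, so that 65.7% of the log2 fall had been recovered in the mean of 36 to 45 h.

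DDIT3 encodes CHOP, a C/EBP family factor that ATF4 induces and that promotes cell death under lasting ER stress. Its signal was 10.53, 9.24, 8.01 and 7.65 at 0, 3, 6 and 9 h, and 8.45, 8.78, 8.85 and 8.37 from 12 to 21 h. It was 8.44, 9.02, 8.67 and 8.77 from 24 to 33 h, and 8.95, 9.48, 9.19 and 8.95 from 36 to 45 h. The fall to 9 h was 7.37-fold, deeper than that of ATF4, and 51.8% of it on the log2 scale had been recovered at 36 to 45 h. No array after 0 h reached the 0 h level.

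ATF5, a relative of ATF4 under similar translational control, moved least. Its signal rose from 11.30 at 0 h to 11.73 at 3 h, was lowest at 12 h (10.71), and lay between 11.29 and 11.39 from 36 to 45 h. The later arrays were thus at about the 0 h level. ATF3, a stress-induced factor of the same family, behaved otherwise: its brighter probe read 11.40 and 11.43 at 0 and 3 h, 9.76 at 6 h and 8.90 at 9 h, and then stayed between 8.27 and 8.91. ATF3 was the only factor transcript whose late arrays all lay close to its lowest one, with 5.06% of its log2 fall recovered.

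**Figure D2:**
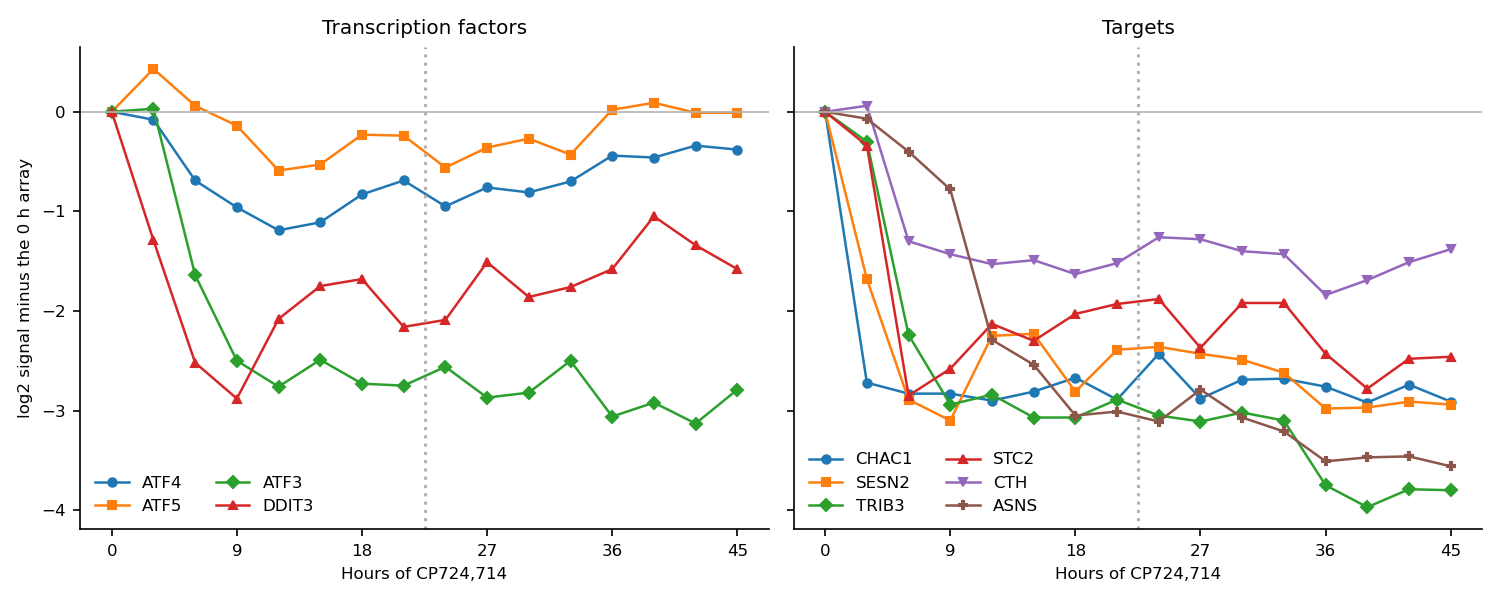
Log2 signal minus the 0 h array (y axis) against hours of inhibitor (x axis) for the 4 factor transcripts (left) and the 6 targets (right), 1 point per array, dotted line between the 2 sets of arrays. ATF4, ATF5 and DDIT3 rose again after 9 to 12 h, while ATF3 and the targets stayed low.

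The falls were ordered by the first hour at or below the midpoint between the 0 h array and the mean of 36 to 45 h. Of the targets, CHAC1, SESN2 and, among the factors, DDIT3 had passed this midpoint by 3 h. For DDIT3 this midpoint (9.84) was shallow, since its mean of 36 to 45 h (9.14) lay above its lowest array (7.65 at 9 h). Its 3 h array read 9.24, and its largest single step, -1.3, came between 0 and 3 h. CHAC1, an enzyme that degrades glutathione, read 8.17 at 0 h (432 intensity units) and 5.45 at 3 h (154 units), and lay between 5.25 and 5.74 on all 15 treated arrays, none of which detected it. Its fall within 3 h was at least 4.43-fold against the detection limit and rests on the 0 h array alone. SESN2, a stress sensor that restrains mTORC1, fell from 8.62 at 0 h to 6.94 at 3 h and was not detected at 6 h (5.73) or 9 h (5.52). Among tested probes, 2.66% were 2-fold or more lower at 3 h than at 0 h, and SESN2 and DDIT3 were the 2 of 8 tested genes that were. With the mean of 0 and 3 h as the start, SESN2 passed its midpoint at 6 h.

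TRIB3, STC2, CTH and ATF3 held most of their signal at 3 h and passed the midpoint at 6 h. The ATF4 transcript also passed its midpoint at 6 h, or at 3 h with median scaling, but that midpoint (13.85) lay close to its 0 h signal (14.05). ATF5 was not placed in the order, since its mean of 36 to 45 h was not below the 0 h array. TRIB3 encodes a pseudokinase that ATF4 induces and that in turn binds ATF4 and dampens its activity. Its signal was 14.45, 14.15, 12.21 and 11.51 at 0, 3, 6 and 9 h, kept to a range of 11.34 to 11.61 over the arrays of 12 to 33 h, and was 10.70, 10.48, 10.66 and 10.65 from 36 to 45 h. TRIB3 fell 15.8-fold between 0 h and its lowest array at 39 h, the deepest fall among the 6 genes detected on 16 arrays. It fell in 2 stages, with a flat stretch between them.

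STC2, a secreted glycoprotein induced by ER stress, read 12.07 and 11.73 at 0 and 3 h and dropped to its lowest array, 9.22, at 6 h. It then lay between 9.49 and 10.19 from 9 to 33 h and was 9.64, 9.29, 9.59 and 9.61 from 36 to 45 h. CTH, the enzyme that releases cysteine in transsulfuration, read 7.58 and 7.64 at 0 and 3 h, 6.28 at 6 h and between 5.74 and 6.32 after that. The CTH signal was close to background throughout, so the size of its fall is a low estimate.

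ASNS, the enzyme that makes asparagine, fell last. Its signal was 13.68, 13.61, 13.28 and 12.90 at 0, 3, 6 and 9 h, and 11.39, 11.14, 10.63 and 10.67 at 12, 15, 18 and 21 h. It was 10.57, 10.89, 10.61 and 10.47 from 24 to 33 h and 10.17, 10.21, 10.22 and 10.12 from 36 to 45 h. The largest single step, -1.50, came between 9 and 12 h, when TRIB3, STC2, CTH and ATF3 had already passed their midpoints. The fall reached 11.8-fold at 45 h, and 1.69% of it on the log2 scale had been recovered in the mean of 36 to 45 h.

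Time windows were compared to give these steps a standard error. Each hour had 1 array, so arrays of different hours stood in for replicates. A change within a window counted as error, and p-values of these comparisons do not measure the spread between repeated cultures. Between 0 to 3 h and 6 to 9 h, 7 of the 8 tested genes fell (limma, adjusted p under 0.05) and 0 rose, with 12.9% of probes lower and 13.7% higher. STC2 was 5.84-fold lower (log2 difference -2.55 ± 0.18 SE, adjusted p = 4.8e-08) and TRIB3 5.44-fold lower (-2.44 ± 0.16, adjusted p = 3.62e-08). SESN2 was at least 3.26-fold lower, being undetected at 6 and 9 h (adjusted p = 9.28e-05). Without the 0 h array this bound was 1.82-fold and the SESN2 difference -1.31 on the log2 scale in place of -2.15, and that of DDIT3 was -1.41. DDIT3 fell by 2.06, CTH by 1.39 and ATF4 by 0.78 on the log2 scale. ASNS fell by 0.56 ± 0.20 (adjusted p = 0.0419), a call that was lost in several alternatives (-0.36, adjusted p = 0.334 without the 9 h array). ATF5 differed by -0.25 ± 0.15 (adjusted p = 0.221). Without a detection filter the difference was -2.08 ± 0.20 for ATF3 (adjusted p = 4.4e-07). For CHAC1 it was -1.47, which rests on the 0 h array alone. Its signals at 3, 6 and 9 h were 5.45, 5.34 and 5.34, all undetected.

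Between 6 to 9 h and 12 to 21 h the genes parted. ASNS fell 4.39-fold (-2.13 ± 0.17, adjusted p = 1.61e-07), and TRIB3 and ATF5 fell by 0.37 and 0.36 on the log2 scale. DDIT3 rose by 0.78 ± 0.26 (adjusted p = 0.0249) and STC2 by 0.62 ± 0.15 (adjusted p = 0.00393). Of all tested probes, 17.6% fell and 17.8% rose. The smaller calls of this step did not hold in every alternative: with median scaling ASNS alone was lower. SESN2 differed by 0.57 ± 0.28 and was detected again at 12, 15 and 21 h.

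Between 12 to 21 h and 24 to 33 h none of the 8 genes was called lower or higher in limma, against 0.219% and 0.203% of probes. ASNS was the 1 gene with an unadjusted p under 0.05, at -0.32 ± 0.14 (adjusted p = 0.329). This step coincides with the change of array background, so time and array set cannot be told apart in it.

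The step from 24 to 33 h to 36 to 45 h lies within 1 set of arrays, and here 3 targets fell while 2 factor transcripts rose. TRIB3 fell by 0.76 ± 0.11 (adjusted p = 0.000158), STC2 by 0.52 ± 0.12 (adjusted p = 0.0071) and ASNS by 0.45 ± 0.14 (adjusted p = 0.0267) on the log2 scale. ATF4 rose by 0.40 ± 0.09 (adjusted p = 0.00559) and ATF5 by 0.43 ± 0.10 (adjusted p = 0.00721). Among all tested probes, 10.1% were called lower and 10.0% higher. CTH (-0.27 ± 0.11), SESN2 (-0.48 ± 0.23) and DDIT3 (0.42 ± 0.21) did not pass, and ATF3 without a filter was at -0.29 ± 0.14 (adjusted p = 0.257). With array weights in limma, SESN2 (-0.45, adjusted p = 0.00903) and DDIT3 (0.41, adjusted p = 0.0213) did pass. With median scaling the rises were 0.34 for ATF4 and 0.32 for ATF5 and missed the threshold (adjusted p = 0.0811 and 0.0963). With the 0 to 9 h arrays merged into 1 window, TRIB3, STC2, ASNS and ATF4 lost their calls (adjusted p = 0.293, 0.526, 0.0949 and 0.124). ASNS lost its call without the 27, 30, 36, 39, 42 or 45 h array, with -0.37 and an adjusted p of 0.0929 without the 27 h array.

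**Figure D3:**
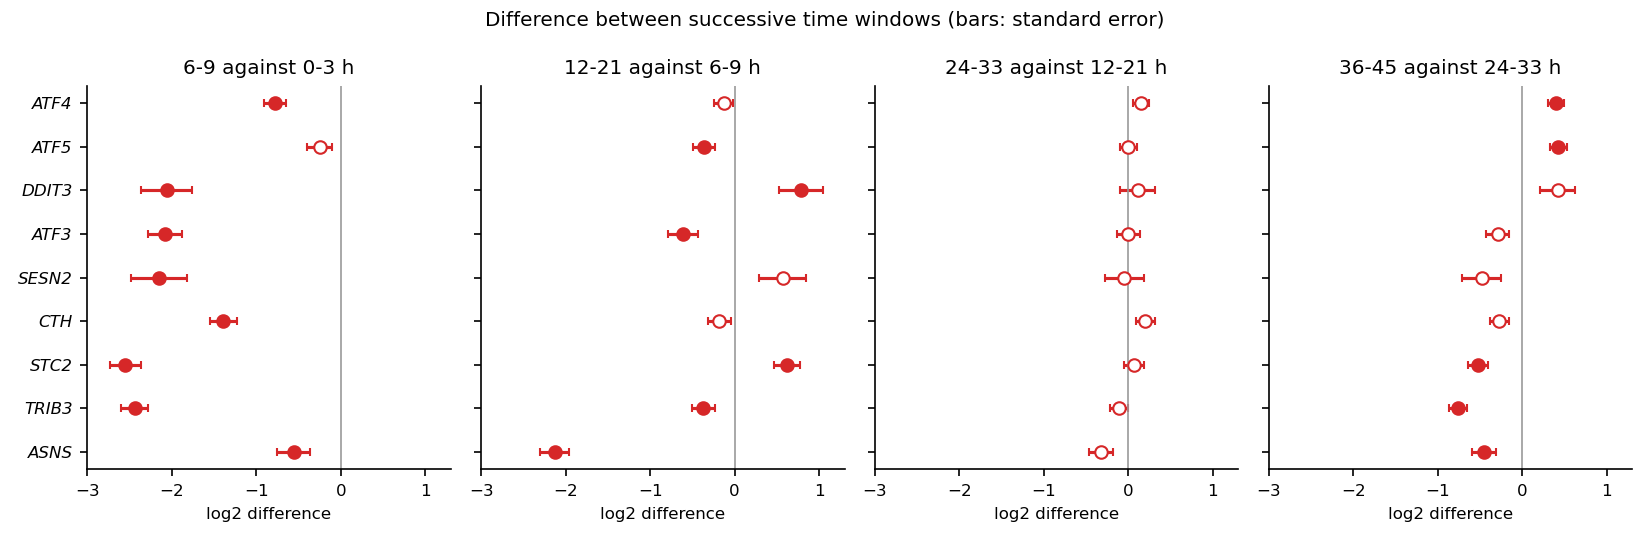
Log2 difference between successive time windows (x axis) for 9 genes (y axis) with its standard error as bars. Filled points have an adjusted p under 0.05, and ATF3 is from the fit without a detection filter. Among the filled points of the last panel, ATF4 and ATF5 lie above 0 and STC2, TRIB3 and ASNS below it.

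Over the whole course, 7 of 8 tested genes were lower at 36 to 45 h than at 0 to 3 h, against 19.7% of probes lower and 21.9% higher. TRIB3 was 12.8-fold lower (-3.68 ± 0.14, adjusted p = 1.92e-12) and ASNS 11.1-fold lower (-3.47 ± 0.17, adjusted p = 5.58e-11). STC2 was 5.17-fold lower and SESN2, undetected on the 4 late arrays, at least 3.4-fold lower, or at least 1.9-fold without the 0 h array. ATF4 remained 1.29-fold lower (-0.37 ± 0.11, adjusted p = 0.0145) and DDIT3 1.67-fold lower (-0.74 ± 0.26, adjusted p = 0.0281). Both calls were lost without the 0 h array, at -0.32 (adjusted p = 0.0747) for ATF4 and -0.09 (adjusted p = 0.785) for DDIT3, and with array weights (adjusted p = 0.121 and 0.0937). DDIT3 also missed the threshold with median scaling (adjusted p = 0.0586) and without the 36 h or the 45 h array (adjusted p = 0.0658 and 0.0654). ATF5 differed by -0.19 ± 0.13 (adjusted p = 0.247).

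Cell type markers moved over the same hours. Of 8 tested breast epithelial markers 5 were higher and 1 lower at 36 to 45 h than at 0 to 3 h. KRT17 was 8.03-fold higher (mean log2 signal 12.29 to 15.29) and ITGB4 3.09-fold higher, and KRT5 was 1.33-fold lower (14.99 to 14.58). The summed linear signal of the 10 on the array was 75556 to 81430 at 0 to 3 h and 120455 to 126194 at 36 to 45 h. Bright markers such as KRT17 and KRT5 weigh most in this sum. Of the 4 tested markers of other cell types 2 were higher and 1 lower in the same comparison, with CD68 1.72-fold and PECAM1 2.04-fold higher and ACTA2 1.37-fold lower. From 6 to 9 h to 12 to 21 h alone, CD68 rose 2.91-fold and PECAM1 2.46-fold and ACTA2 fell 1.35-fold. The summed signal of all 12 was 4358 to 6001 at 0 to 3 h, 5181 to 5807 at 12 to 21 h and 4379 to 4803 at 36 to 45 h. VWF, CDH5, COL1A1, COL1A2 and PDGFRB were detected on 0 arrays. The part of these markers in the changes of the 10 genes was not tested.

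A straight line gave a fall for 4 of the 8 genes and a rise for 0, against 11.3% of probes falling and 13.1% rising. The log2 change over 45 h was -3.62 ± 0.44 for ASNS (adjusted p = 1.4e-05) and -2.88 ± 0.49 for TRIB3 (adjusted p = 0.000303). It was -1.38 ± 0.45 for SESN2 (adjusted p = 0.0317) and -1.03 ± 0.32 for CTH (adjusted p = 0.0253). STC2 was at -1.33 ± 0.49 (adjusted p = 0.0565). ATF4, ATF5 and DDIT3, whose courses turned, were at 0.06 ± 0.25, -0.05 ± 0.22 and 0.13 ± 0.48. With array weights these 3 were called as rises, at 0.85 for ATF4 (adjusted p = 0.000545), 0.61 for ATF5 (adjusted p = 0.00775) and 0.77 for DDIT3 (adjusted p = 0.045), STC2 was called as a fall (-0.78) and CTH lost its call (-0.27, adjusted p = 0.356). Without the 0 h or the 3 h array, SESN2 and CTH were no longer called and 2 genes, ASNS and TRIB3, were. SESN2 also lost its call without the 36, 39 or 42 h array (adjusted p = 0.0531, 0.0546 and 0.0503). Within the 24 to 45 h arrays alone ATF4 rose by 1.32 (adjusted p = 0.000324) and ATF5 by 1.27 (adjusted p = 0.00411), expressed as log2 change over 45 h, while STC2 was at -1.39 (adjusted p = 0.034).

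The targets were then set against the factor transcripts array by array. These correlations are descriptions, since arrays of 1 time course share their trend, and they are given within each set of 8 arrays. From 0 to 21 h ASNS, CTH, SESN2, STC2 and TRIB3 each correlated positively with every factor. TRIB3 had a Pearson r of 0.94 with ATF4 and 0.98 with ATF3, CTH 0.92 and 0.98, and STC2 0.86 and 0.83. DDIT3 was itself among the first to pass its midpoint. With it, r was 0.94 for SESN2, 0.89 for STC2, 0.77 for TRIB3, 0.75 for CTH and 0.29 for ASNS, the last to fall. SESN2 was not detected at 6, 9 and 18 h, and CTH was not detected at 18 h. CHAC1, detected at 0 h alone, is not read.

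From 24 to 45 h the sign with ATF4, ATF5 and DDIT3 was the opposite. ASNS had an r of -0.83 with ATF4, TRIB3 -0.92, STC2 -0.80 and CTH -0.63. SESN2, at -0.96, was detected on only 3 of these 8 arrays, and CHAC1 on none. CTH was not detected at 36 and 39 h. With the ATF3 transcript the sign stayed positive, from 0.39 for ASNS to 0.71 for STC2. Among the factors themselves, ATF4 and ATF5 kept together in both sets (r of 0.83 and 0.91), whereas ATF4 and ATF3 had an r of 0.92 before and -0.69 after. ATF3 rests on the probe with off-step detection p-values.

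**Figure D4:**
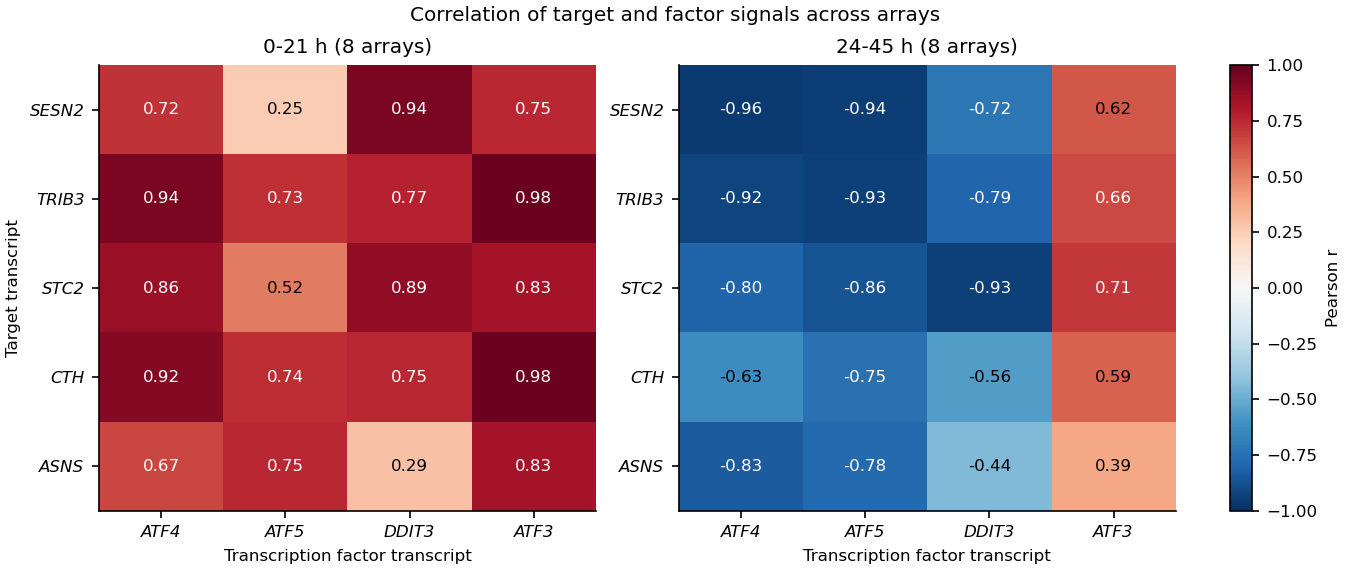
Pearson r between the log2 signals of 5 targets (rows) and 4 factor transcripts (columns) over the 8 arrays from 0 to 21 h (left) and the 8 from 24 to 45 h (right), with the color scale from -1 to 1. All values were positive on the left, and on the right only the ATF3 column was.

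The 5 genes named here had the profile most like the mean standardised course of the 4 genes with a linear fall (ASNS, CTH, SESN2 and TRIB3), out of 8366 candidate genes detected on 16 arrays. They were BAMBI (r = 0.975), a decoy receptor of the TGF beta family, ARMC5 (0.971), AARS (0.971), the alanyl-tRNA synthetase, C13orf23 (0.970) and MVK (0.970), the mevalonate kinase of sterol synthesis. BAMBI went from 13.34 at 0 h to 10.44 at 45 h and AARS from 13.24 to 11.47.

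Other genes of the pathway were counted in the linear fit, where 11.3% of all tested probes fell and 13.1% rose. In amino acid synthesis and one-carbon metabolism, 6 of 10 tested genes fell and 0 rose, with a median change of -1.04 against 0.01 over all tested probes. PSAT1 and PHGDH, enzymes of serine synthesis, changed most (-4.04 ± 0.37 and -2.80 ± 0.17, adjusted p = 5.78e-07 and 8.74e-09). At 36 to 45 h against 0 to 3 h, 9 of the 10 were lower and 0 higher.

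Of 8 amino acid transporters 7 fell and 0 rose, with a median of -1.27. Among them SLC7A11 and SLC1A4 were detected on only 4 and 3 arrays. Their mean signals were 6.50 and 6.61 at 0 to 3 h and 5.37 and 5.59 at 36 to 45 h. They may have passed the filter only through arrays where they were high, so their falls, in either comparison below, are counted but not read. SLC7A5 and SLC3A2, the light and heavy chains of a large neutral amino acid exchanger, changed by -2.49 ± 0.38 and -2.14 ± 0.42. Of 14 aminoacyl-tRNA synthetases 7 fell and 0 rose (median -0.71), led by WARS (-1.50 ± 0.18) and MARS (-1.44 ± 0.27), which charge tryptophan and methionine tRNA. Most members of both lists were lower at 36 to 45 h than at 0 to 3 h, 7 of 8 transporters and 12 of 14 synthetases, while 2 synthetases were higher.

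Of 16 other stress targets of ATF4 or CHOP, 7 fell and 0 rose (median -0.66), led by XPOT, a tRNA exporter (-1.94 ± 0.32), and EIF4EBP1, a repressor of cap-dependent translation (-1.82 ± 0.18). A further list held 18 tested ER chaperone and folding genes and their regulators, grouped under the ATF6 and XBP1 arms. Of these, 13 fell and 0 rose (median -0.68), led by XBP1 (-1.64 ± 0.38) and HYOU1 (-1.50 ± 0.34). Falls were thus counted in this list too. Of 15 genes upstream of ATF4, eIF2 alpha kinases, phosphatase subunits and partners, 2 fell and 3 rose (median -0.05), which in this linear fit is near the share over all tested probes. EIF2S2, the beta subunit of eIF2, changed by -1.30 ± 0.41 and EIF2B3 by 0.77 ± 0.34 (adjusted p = 0.114). The genes past the threshold against the sign of the list median were EIF2S3 (0.68 ± 0.10), EIF2B4 (0.42 ± 0.13) and EIF2AK1 (0.31 ± 0.11), the heme-regulated eIF2 alpha kinase. At 36 to 45 h against 0 to 3 h, 5 of the 15 upstream genes were lower and 4 higher, against 19.7% and 21.9% of all tested probes. At 6 to 9 h against 0 to 3 h, 3 were lower and 1 higher, against 12.9% and 13.7%. The 3 lower in that step were EIF2S2 (3.28-fold), EIF2AK3, an eIF2 alpha kinase (2.47-fold), and EIF2S1 (1.58-fold). Their adjusted p in limma was 5.51e-06, 0.000818 and 0.00551. The 1 higher was EIF2B4 (1.43-fold, adjusted p = 0.00115). The kinases EIF2AK1, EIF2AK2 and EIF2AK4 were not called in that step.

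**Figure D5:**
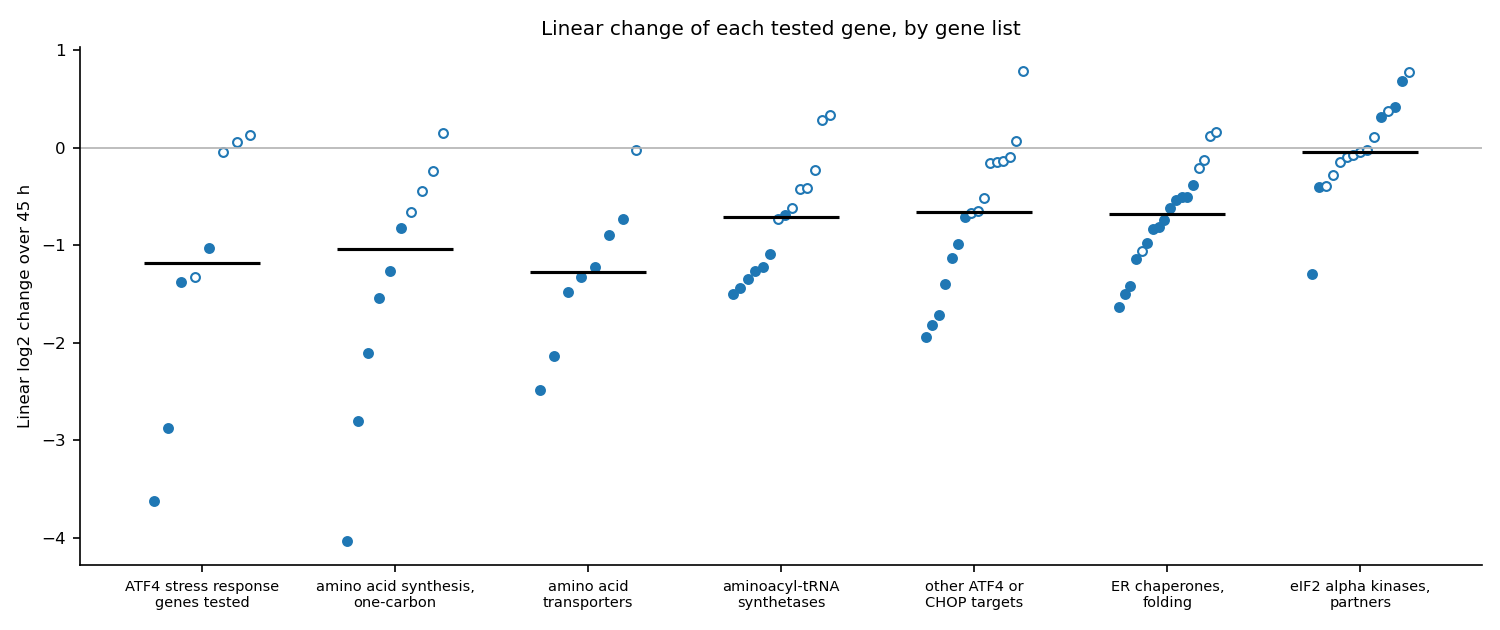
Linear log2 change over 45 h (y axis) of each tested gene in 7 lists (x axis), filled where the adjusted p was under 0.05, with the list median as a black line. Medians lie between -1.27 and -0.66 except for the upstream eIF2 list, at -0.05.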

How the data were processed

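Amplified RNA was hybridised to Illumina human Ref8v2 arrays. The authors deposited, for each of 20589 probes on 16 arrays, an intensity not normalized between arrays and a detection p-value against negative controls. The software behind them is not given in the sources used here. For 1482 probes, ATF4 and the brighter ATF3 probe among them, the deposited detection p-values lie off the steps of 1 in 708 (within 0.01 of a step) that the other 19107 follow. Background was corrected by the neqc method in limma 3.58.1 (R 4.3.3) with control moments inferred from those 19107 probes, a choice made after the file was seen, then offset by 16, quantile normalized and taken to log2. The offset pulls fold changes of dim probes toward 1. Tests covered the 12321 probes with a detection p under 0.05 on at least 3 arrays, by limma with a mean-variance trend: a natural spline with 4 degrees of freedom, a straight line, and contrasts of time windows, with Benjamini-Hochberg adjustment over all tested probes. Each gene is read by its brightest detected probe (mean signal). A fold against arrays where a probe was undetected is set against the lowest detected signal of each array. Genes named from each pathway list are the 2 with the largest linear change and any called against the list median. Members, lists and windows were chosen with earlier results of these data known. The computations were tested on simulated data. Alternatives covered background correction, scaling, filter, variance model, array weights, batch, windows and single arrays; precision is limited by the number of arrays, 1 per hour. Symbols are those of the table.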

Additional observations from a re-analysis of the deposited data

Results flagged for a closer look

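The brighter ATF3 probe entered none of the filtered fits, yet its intensity lay above the detection threshold of the array on 16 of 16 arrays, between 379 and 3120 units. It carried detection p-values of 0.161 to 0.485. With detection taken from the signal instead, a choice made after seeing the data, 9 of the 10 genes were tested.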

How the results depend on the processing

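Counts below are of the 8 tested genes unless another number is given. No paired analysis was possible because each hour has 1 array. With median scaling the median of all tested probes moved by -0.112 between 0 to 3 h and 6 to 9 h and by 0.10 in the linear fit. Under it 1 gene fell from 6 to 9 h to 12 to 21 h, 0 rose from 24 to 33 h to 36 to 45 h, the ATF5 linear change was 0.11, and ATF4 passed its midpoint at 3 h. Without a variance trend 1 gene fell from 6 to 9 h to 12 to 21 h. Array weights gave 7 linear trends, linear rises of 0.85 for ATF4, 0.61 for ATF5 and 0.77 for DDIT3 (adjusted p = 0.000545, 0.00775 and 0.045, limma), and 1 fall and 1 rise from 6 to 9 h to 12 to 21 h. Only probes detected on 16 arrays left 6 of the genes and 2 linear falls. Without the 9 and 18 h arrays 1 gene rose from 6 to 9 h to 12 to 21 h, and the linear change was -0.02 for ATF4 and -0.14 for DDIT3. The array sets as a block left 2 linear falls, with -0.24 for ATF4 and -0.62 for DDIT3. Within 0 to 21 h these were -1.80 and -2.49 per 45 h, and within 24 to 45 h ATF5 was at 1.27. Windows with 0 to 9 h merged left 0 falls and 1 rise at 36 to 45 h. The mean of 0 and 3 h as start moved the SESN2 midpoint to 6 h. Background moments from all detection p-values, chosen after seeing the data, left 1 rise at 12 to 21 h and put DDIT3 at -0.18.

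With single arrays left out, time-dependent genes numbered 5 to 8 (5 without 0 h) and linear falls 2 to 5 (2 without 0 h or 3 h). Falls and rises from 6 to 9 h to 12 to 21 h each numbered 1 to 3, with 1 of each without the 6 h or the 15 h array and 1 rise without the 9 h or the 18 h array. The linear change ran from -0.04 to 0.36 for ATF4, -0.13 to 0.15 for ATF5 and -0.13 to 0.88 for DDIT3, and the ATF5 difference of 36 to 45 h from 0 to 3 h from -0.40 to 0.02. The 0 h level is a single array, which limits every depth given from it, and CHAC1, SESN2 and CTH lie near background.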
